A study of Mus musculus with 10 samples.

Results

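The receptors described here guide neutrophils toward chemoattractants, the soluble signals released at a site of infection or injury. The set was chosen by gene symbol alone, as 10 receptors, and 8 of the 10 had a probe set (a group of array probes for 1 gene) in the table that pairs the array's probes with genes. These were Cxcr2, Ccr1, Ccr2, Fpr2, C5ar1, C3ar1, Ltb4r1 and Ptafr, out of 17097 genes in all. The table pairs no probe set with Cxcr4 or with Fpr1, so both were not analysed here, and neither was the balance of Cxcr2 against Cxcr4. Where a gene had several probe sets, the brightest one on average was used, and the others are given beside it.

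All 8 are receptors with 7 membrane-spanning segments that can signal through Gi proteins, which start the actin changes of directed movement. Blood neutrophils meet several kinds of attractant. Chemokines such as CXCL1 and CXCL2 act at CXCR2, formyl peptides from bacteria act at the formyl peptide receptors, the complement fragments C5a and C3a act at C5aR1 and C3aR, and the lipids leukotriene B4 and platelet-activating factor act at BLT1 and the platelet-activating factor receptor. CXCR2 promotes release of neutrophils from bone marrow, a step that CXCR4 opposes.

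RNA was measured in blood neutrophils of male C57BL/6 mice aged 3 months, with no treatment named, after 9 days of acclimatization. One array was made for each of 5 animals (mouse 1 to mouse 5, the biological replicates). The blood of 5 further mice was mixed and divided into 5 portions, each taken separately through the Ly6G magnetic isolation and onto its own array (pool 1 to pool 5, technical replicates of 1 sample). The stated purity of the cells was 71.5% to 99.5%, without a value for each sample. The comparison asks how far receptor RNA differs between animals beyond the noise of the procedure.

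Signals are log2 values from RMA, so a difference of 1 is a change of 2-fold, and values of different probe sets are not compared with each other. With 5 arrays a group, precision is limited by their number. The neutrophil transcript S100a8, a calcium-binding protein abundant in these cells, read 12.67 to 13.29 on all arrays. Of 13 neutrophil markers, 11 were measured and tested. With each gene centred on its own mean, their average was 0.17 to 0.55 in mice 1 to 4, -2.31 in mouse 5 and -0.24 to 0.61 in the pool. Mouse 5 stood apart on the whole array: its 95th percentile of signal was 7.46 against 8.72 to 9.25 elsewhere, and its Gapdh control probes at the 3′ end read 7.78 against 11.62 to 12.25. Its median signal was higher than elsewhere, at 4.74 against 4.5 to 4.59. Mouse 5 was the lowest array for 43.8% of the 10734 tested genes and the highest for 23.3%. Values are therefore given with and without mouse 5, and without mice 4 and 5, since mouse 4 was the lowest array for 22.7% of genes.

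The upstream sequences of 3 receptors are shown as a description. These receptors were picked for their values in mouse 5, where Cxcr2 was low and Fpr2 was not low. Ccr1 was low there on 1 of its 2 probe sets. A link between these sequences and the signals was not tested. Each run is the 250 bases before the annotated gene start, 5′ to 3′ on the strand of the gene, from RefSeq on build GRCm38.p6. They lie at chr1:74153744-74153993 (+ strand), chr9:123968693-123968942 (- strand) and chr17:17887574-17887823 (+ strand). Capitals mark a match to 1 of 4 motifs searched on both strands.
Cxcr2: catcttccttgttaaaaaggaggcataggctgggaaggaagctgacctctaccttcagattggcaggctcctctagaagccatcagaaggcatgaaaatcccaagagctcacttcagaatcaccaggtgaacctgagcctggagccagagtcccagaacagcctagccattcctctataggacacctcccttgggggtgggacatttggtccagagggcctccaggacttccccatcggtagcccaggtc
Ccr1: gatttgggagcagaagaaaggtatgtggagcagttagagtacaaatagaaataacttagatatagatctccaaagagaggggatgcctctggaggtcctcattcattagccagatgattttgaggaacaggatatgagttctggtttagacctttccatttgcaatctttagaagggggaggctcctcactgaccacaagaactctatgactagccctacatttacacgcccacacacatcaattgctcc
Fpr2: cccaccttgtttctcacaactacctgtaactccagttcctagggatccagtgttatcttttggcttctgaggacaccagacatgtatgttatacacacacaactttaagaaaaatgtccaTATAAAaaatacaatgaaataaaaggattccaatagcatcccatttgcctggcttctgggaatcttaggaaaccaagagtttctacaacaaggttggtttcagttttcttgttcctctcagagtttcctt

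The motifs were the C/EBP core TTGCNNAA, the PU.1 core GAGGAAG, the TATA box TATAAA and the GC box GGGCGG, of which none contains another. The stretches of Cxcr2 and Ccr1 held no match to any of these letters, and that of Fpr2 held 1 TATA box match, starting 130 bases before the gene start. Over the 10 receptor genes, all of which matched a sequence listed as upstream, 0 held the C/EBP core, 1 the PU.1 core (Ltb4r1), 4 the TATA box and 4 the GC box. By the gene positions used here, the stretch of Ccr2 lay inside the gene and that of C5ar1 overlapped it. Among all 32851 upstream stretches of the same length the shares were 9.56%, 10.6%, 12.4% and 32.7%. A match is a description of the sequence and not evidence of binding.

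Cxcr2, the main receptor for chemokines that draw neutrophils into tissue (Entrez gene 12765), was strongly detected in every animal but mouse 5. It read 9.81, 10.68, 10.74, 10.80 and 6.67 in mice 1 to 5. In the pool it read 10.12, 10.09, 10.75, 10.01 and 9.86. Mouse 5 lay below all 9 other arrays, while mice 1 to 4 overlapped the pool. The SD was 1.76 between mice and 0.34 between pool arrays, and the variance ratio was 25.7 (limma moderated variance test, adjusted p = 0.000198, n = 5 against 5). Without mouse 5 the SD was 0.47 and the ratio 1.78, with an adjusted p of 0.388 in the same limma test (4 mice). After the arrays were quantile normalized again, mouse 5 still read lowest of the mice, at 7.80 against 9.78 to 11.11. Cxcr2 had 1 probe set, so its low value in mouse 5 could not be compared with a further one. The part of RNA quality in that value was not tested.

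Ccr1, a receptor for CC chemokines such as CCL3 (Entrez gene 12768), gave a different answer with each of its probe sets. The brighter one read 10.48, 10.68, 10.48, 10.92 and 6.18 in mice 1 to 5, against 10.79, 9.67, 10.94, 10.13 and 9.90 for the pool. The other gave 9.04, 9.25, 9.14, 10.12 and 9.13 for the mice, and for the pool 9.41, 9.19, 9.66, 8.97 and 8.79. Mouse 5 was far below every array on the brighter probe set and within the range of the others on the second, where mouse 4 was highest. Both probe sets carry the same source accession in the probe table.

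For the brighter probe set of Ccr1 the variance ratio was 21.3 (limma adjusted p = 0.000318, n = 5 against 5). For the second it was 0.69 on the log2 scale, with a limma adjusted p of 0.279. Without mouse 5 the brighter probe set had an SD of 0.21 between 4 mice against 0.56 in the pool (limma adjusted p = 0.94 for a larger spread between mice). In mouse 5, the shift from the median of mice 1 to 4 was -4.40 for the brighter probe set and -0.07 for the second, a gap of 4.34. Among 3454 genes with at least 2 probe sets above the filter, 93 (2.69%) had a gap of that size or more between their brightest probe sets, and the median gap was 1.14. The control probes of Actb, which read the 3′ and the 5′ end of 1 transcript, stood at 12.52 and 7.95 in mouse 5. They stood at 12.97 to 13.55 and 9.10 to 12.19 elsewhere, with 13.51 and 9.10 in mouse 3. In mouse 3 the brighter Ccr1 probe set read 10.48 and the second 9.14. For Gapdh the 3′ and 5′ control probes read 7.78 and 4.73 in mouse 5, and 11.62 to 12.25 and 5.5 to 8.48 elsewhere. Mouse 3 gave 11.67 and 5.5 for this pair. The part of RNA quality in the Ccr1 difference was not tested.

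**Figure D1:**
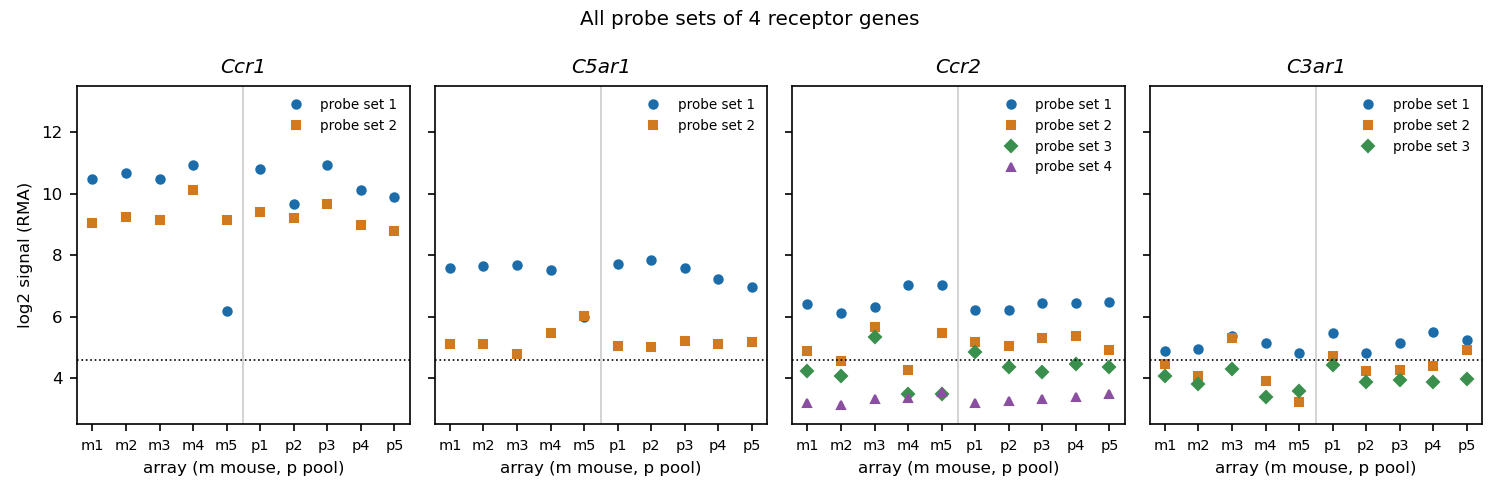
Log2 signal (y axis) of every probe set of Ccr1, C5ar1, Ccr2 and C3ar1 on the 10 arrays (x axis, mice 1 to 5 then pool 1 to 5); probe sets are numbered by their mean and the dotted line is the filter at 4.58. In mouse 5, the brighter Ccr1 probe set falls to 6.18 while the second stays at 9.13, and for C5ar1 the first is at its lowest (6.00) and the second at its highest (6.03).

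Ccr2, a receptor for CCL2 that is best known on inflammatory monocytes (Entrez gene 12772), was weak and also split by probe set. The brightest of its 4 probe sets read 6.42, 6.12, 6.30, 7.02 and 7.04 in mice 1 to 5. In the pool it read 6.22, 6.20, 6.45, 6.45 and 6.48. Mice 4 and 5 lay above all other arrays, and mice 1 to 3 overlapped the pool. The SD was 0.43 between mice and 0.14 in the pool (variance ratio 4.10, limma adjusted p = 0.0423), and the call rests on single arrays. The limma adjusted p was 0.0767, 0.0689 and 0.144 without mouse 2, 4 or 5, and 0.0613, 0.0666 and 0.0814 without pool 2, 3 or 4. It was 0.0875 after each array was centred on its median.

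The second probe set of Ccr2 had a different order, with 5.66 in mouse 3, 5.45 in mouse 5 and 4.27 in mouse 4. On it the variance ratio was 3.51 on the log2 scale (limma adjusted p = 0.00196). The third read 5.34 in mouse 3 and 3.49 in both mouse 4 and mouse 5, and the fourth read 3.13 to 3.56 on all arrays. Monocyte markers, of which 9 of 12 were tested, were lower in mice 4 and 5 (averages of -0.70 and -0.74) than in mice 1 to 3 (0.28 to 0.38), with -0.16 to 0.53 in the pool. The defining monocyte marker Csf1r, the receptor for macrophage colony-stimulating factor, read 7.43 in mouse 5 and 8.32 to 9.36 elsewhere. Single markers went against the average in mouse 4, where Csf1r read 8.99 against 8.32 in mouse 3 and the macrophage and monocyte protein gene Adgre1 read 9.44, its highest value. In mouse 5 the marker Ace went against the average. It read 5.66 there, 4.60 to 4.87 in mice 1 to 4 and 4.71 to 5.08 in the pool. The part of monocytes in the Ccr2 values was not tested.

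Fpr2, a receptor for formylated and other peptides (Entrez gene 14289), was detected on every array and did not fall in mouse 5. It read 11.23, 11.04, 11.49, 11.62 and 11.77 in mice 1 to 5, and 11.66, 11.55, 11.67, 11.33 and 10.91 in the pool. The groups overlapped throughout, and mouse 5 was the highest of the 10 arrays. The SD was 0.29 between mice and 0.32 between pool arrays (variance ratio 0.842, limma adjusted p = 0.561 for a larger spread between mice). Of the 538 genes with a mean above 10, mouse 5 was the lowest array for 63.2% and the highest for 16.5%. When the arrays were quantile normalized again, Fpr2 read 11.79 in mouse 5, 11.99 in mouse 4 and 11.21 to 11.33 in mice 1 to 3, and then varied more between mice (2.23 on the log2 scale, limma adjusted p = 0.03).

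**Figure D2:**
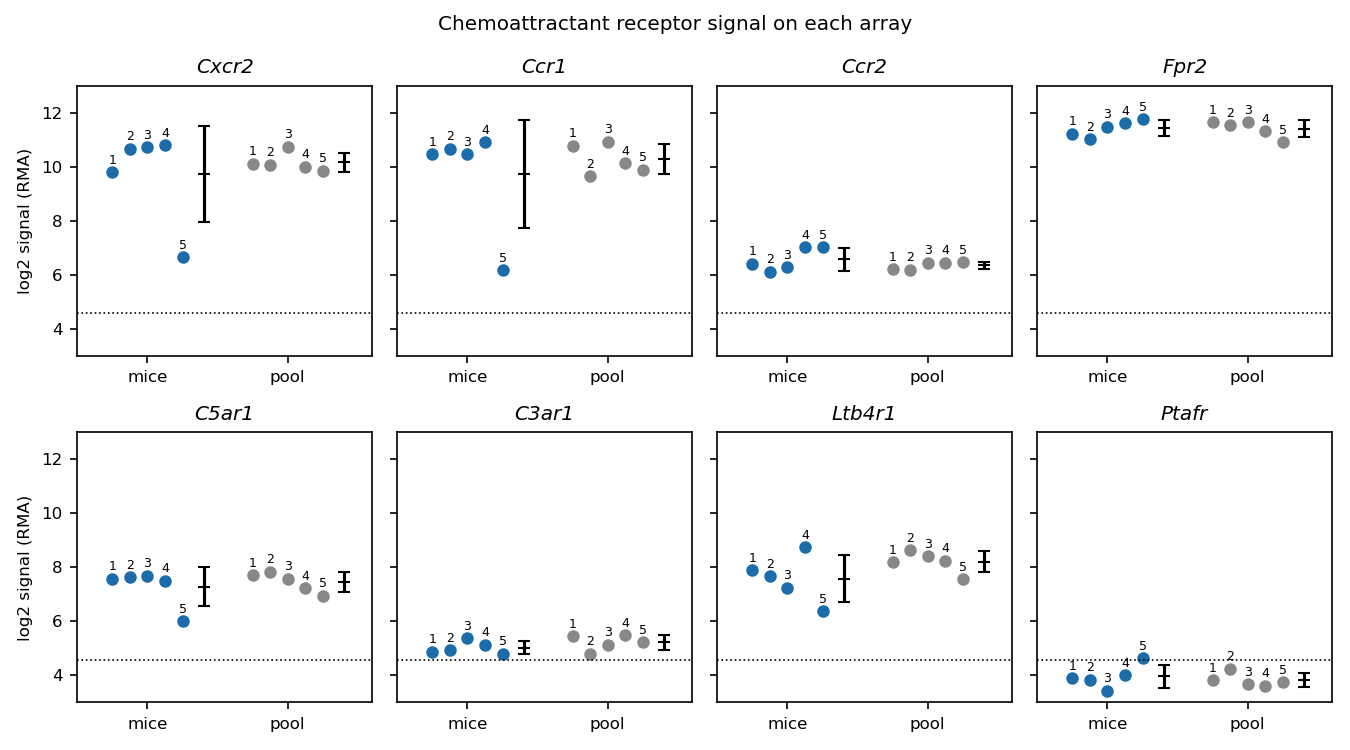
Log2 signal (y axis) of the 8 receptors on each array, as points numbered by replicate, for the 5 mice (blue) and the 5 pool arrays (grey); bars give the mean and SD of each group and the dotted line is the filter at 4.58. Mouse 5 is far below the other arrays for Cxcr2 (6.67) and Ccr1 (6.18), is the highest for Fpr2 (11.77), and Ptafr lies mostly under the filter.

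C5ar1, the receptor for the complement fragment C5a (Entrez gene 12273), was nearly level across mice 1 to 4. It read 7.59, 7.63, 7.69 and 7.51 in these mice and 6.00 in mouse 5. The pool read 7.71, 7.84, 7.59, 7.23 and 6.96. Mouse 5 was below all other arrays, and mice 1 to 4 lay inside the range of the pool. The SD of 0.72 between mice against 0.36 in the pool gave a variance ratio of 5.06 (limma adjusted p = 0.024). Without mouse 5 the SD between 4 mice was 0.07 (limma adjusted p = 0.994 for a larger and 1 for a smaller spread between mice).

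The second probe set of C5ar1 moved the other way. It read 6.03 in mouse 5, 4.78 to 5.45 in mice 1 to 4 and 5.00 to 5.21 in the pool, so that mouse 5 was its highest array. Its spread was also larger between mice (3.35 on the log2 scale, limma adjusted p = 0.00278). After a further quantile normalization the first probe set had an adjusted p of 0.107 in limma.

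C3ar1, the receptor for C3a (Entrez gene 12267), was close to the filter, the median signal of all probe sets. It read 4.88, 4.93, 5.38, 5.14 and 4.80 in mice 1 to 5, and 5.45, 4.80, 5.14, 5.50 and 5.22 in the pool. The groups overlapped, with an SD of 0.23 between mice and 0.28 in the pool (variance ratio 1.17, limma adjusted p = 0.414). Its dimmer probe sets, both below the filter, read 3.22 to 5.30 and 3.38 to 4.43, and on both mouse 3 was the highest mouse.

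Ltb4r1, which encodes the leukotriene B4 receptor BLT1 (Entrez gene 16995), had the widest range among mice 1 to 4 when each receptor was read by its brightest probe set. It read 7.89, 7.67, 7.25, 8.75 and 6.38 in mice 1 to 5, and 8.20, 8.63, 8.43, 8.25 and 7.57 in the pool. Mouse 4 was above every pool array, and mice 3 and 5 were below all of them. The SD was 0.87 between mice and 0.40 in the pool (variance ratio 6.13, limma adjusted p = 0.0138). Without mouse 5 the SD was 0.63 and the adjusted p 0.174, and without mouse 4 the limma adjusted p was 0.0718. After a further quantile normalization mouse 3 (7.03), not mouse 5 (7.32), was the lowest mouse.

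Ptafr, the receptor for platelet-activating factor (Entrez gene 19204), had a mean of 3.89 on the log2 scale, under the filter at 4.58, and was not among the tested genes. Mice 1 to 5 gave 3.89, 3.84, 3.43, 4.00 and 4.65, the pool 3.83, 4.25, 3.67, 3.62 and 3.75, with mouse 5 the highest array. With no filter on low values its variance ratio was 6.13 (limma adjusted p = 0.0148). The SD was 0.44 between the 5 mice, 0.25 between mice 1 to 4 and 0.25 in the pool. Its second probe set read 3.35 to 3.56 on all arrays.

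Of the 7 receptors that passed the filter and were tested, 5 varied more between mice than between pool arrays at an adjusted p under 0.05 (Cxcr2, Ccr1, Ccr2, C5ar1 and Ltb4r1), against 66.8% of all tested genes. The share among receptors is thus close to that of all genes, and the median log2 variance ratio was 2.34 over the 7 against 2.72 over all genes. Without mouse 5, 0 of 7 passed in limma, against 20.3% of all genes at an adjusted p under 0.05. Ccr2 was the 1 receptor at an unadjusted p under 0.05 for a larger spread, with no share of all genes given here for that threshold. The median log2 variance ratio was then 0.19 for the receptors and 0.97 for all genes. Without mice 4 and 5, 0 of 7 passed, against 0.708% of all genes at an adjusted p under 0.05. In that set 0 receptors had an unadjusted p under 0.05 for a larger spread. No receptor varied less between mice at an adjusted p under 0.05 in limma in any of the 3 sets of arrays. The share of all genes called lower in spread was 0% in each. At an unadjusted p under 0.05 there were 0, 1 (C5ar1) and 1 (C5ar1) receptors, against 0.54%, 2.95% and 7.41% of all genes. The separate test on absolute deviations called 0 of 7 with all arrays, and 0 at an unadjusted p under 0.05. Over all 10734 tested genes it called 0, and 836 at an unadjusted one-sided p under 0.05.

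**Figure D3:**
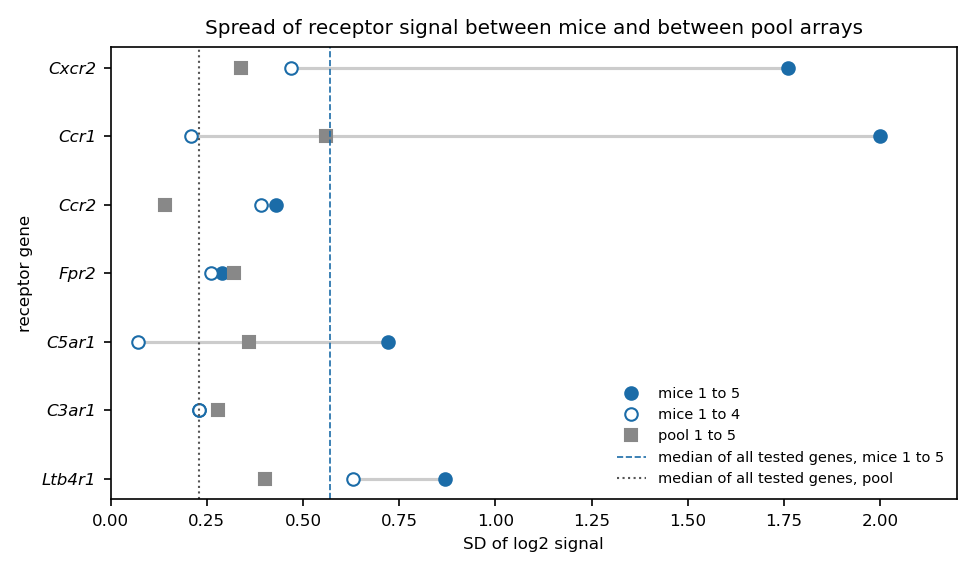
SD of log2 signal (x axis) for the 7 tested receptors between mice 1 to 5 (filled circles), mice 1 to 4 (open circles) and pool arrays (squares), with the median of all tested genes for the mice (dashed, 0.57) and the pool (dotted, 0.23). For Cxcr2 and Ccr1 the SD drops from 1.76 and 2.00 to 0.47 and 0.21 when mouse 5 is left out, while those of Fpr2 and C3ar1 lie close to the pool in both cases.

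Mean levels of the receptors did not pass the test between the mice and the pool. With the spread between mice as the error, 0 of 7 receptors differed (limma, 0 at an unadjusted p under 0.05), against 0% of all genes in either direction and 5.22% at an unadjusted p under 0.05. The largest differences, mice minus pool, were -0.63 for Ltb4r1 (SE 0.55), -0.54 for Ccr1 (SE 1.03) and -0.43 for Cxcr2 (SE 0.93), each with a limma adjusted p of 0.999. Without mouse 5 the differences of Cxcr2 and Ccr1 were 0.34 (SE 0.28) and 0.35 (SE 0.19), with limma adjusted p of 0.738 and 0.559. In that set 0 of 7 receptors passed (0 at an unadjusted p under 0.05), against 0.0186% of all genes called higher in the mice, 1.43% called lower and 12.4% at an unadjusted p under 0.05. Without mice 4 and 5, Ltb4r1 was lower in the mice by 0.61 (SE 0.21, unadjusted p = 0.0344, limma adjusted p = 0.156). It was the 1 receptor at an unadjusted p under 0.05, against 26.7% of all genes, and 0 passed after adjustment, against 1.08% of all genes called higher and 3.28% lower.

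The pattern of each receptor over the 10 arrays was compared by the root mean square distance between profiles centred on their own mean, as a description. Of the 21 pairs among the 7 tested receptors, Ccr2 with Fpr2 was closest (0.32), followed by C3ar1 with Fpr2 (0.37) and Ccr1 with Cxcr2 (0.38). The most distant pair was Ccr1 with Ccr2 (1.52). The distance is not scaled by spread, so genes with little spread lie close to each other whatever their order of arrays. In mouse 5, for example, C3ar1 read 4.80, the lowest of the mice, and Fpr2 read 11.77, its highest value. Over all tested genes the nearest profiles to Cxcr2 were those of Mmp9, Emb and Tor4a, each at 0.25, against a median distance of 1.12. Mmp9, the gelatinase of neutrophil granules and 1 of the neutrophil markers above, lay at 11.97 to 12.27 for mice 1 to 4, at 8.38 for mouse 5 and at 11.48 to 12.29 for the pool. Emb, which encodes the membrane glycoprotein embigin, read 10.87 to 11.23, 7.02 and 10.19 to 11.26. The low value of mouse 5 is common to all of these profiles.

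The other chemokine and chemoattractant receptors, a list of 33 genes of which 26 were measured and 13 tested, held 3 genes that varied more between mice also without mouse 5. These were Cxcr5, which guides B cells to follicles, Ccr6, a receptor of B cells and some T cells, and S1pr1, the receptor by which lymphocytes leave lymphoid organs. Cxcr5 read 8.64, 8.82, 10.63, 4.84 and 5.44 in mice 1 to 5, and 7.29 to 8.62 in the pool. Ccr6 read 7.69, 7.56, 7.65, 3.82 and 5.22, and 6.51 to 7.42 in the pool. S1pr1 read 6.68, 7.48, 7.90, 5.24 and 6.10, and 6.62 to 6.89 in the pool.

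In all 3, mice 4 and 5 were below every other array. The limma adjusted p without mouse 5 was 0.000422, 0.000297 and 0.000675, and without mice 4 and 5 it was 0.307, 1 and 0.274. B cell markers, of which 9 of 12 were tested, stood at 0.95, 0.95, 1.64, -2.54 and -1.96 in mice 1 to 5 and at -0.19 to 0.88 in the pool. Ms4a1, the B cell surface protein CD20, lay at 9.99 to 11.65 for mice 1 to 3, while mouse 4 gave 5.71, mouse 5 gave 6.82 and the pool 8.71 to 10.22. Cd79a, another of the 9 markers, lay inside the range of the pool in mouse 5. It read 7.40 there, 7.41 to 8.11 in mice 1 to 3, 6.52 in mouse 4 and 6.53 to 7.46 in the pool. The part of B cells in these receptor values was not tested, and in bulk samples fewer cells of a type and less RNA per cell cannot be told apart. In mice 4 and 5, both low in the average of the B cell markers, Cxcr2 read 10.80 and 6.67, its highest and its lowest value.

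**Figure D4:**
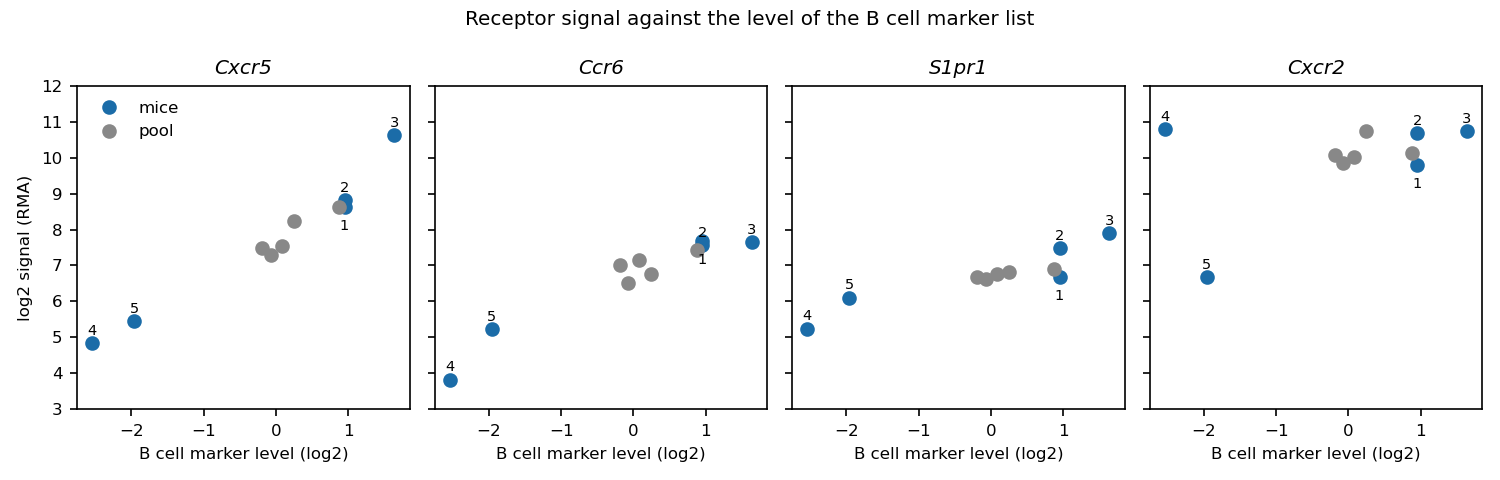
Log2 signal (y axis) of Cxcr5, Ccr6, S1pr1 and Cxcr2 against the mean level of 9 B cell markers relative to each gene's mean (x axis), for the mice (blue, numbered) and the pool arrays (grey). Mice 4 and 5, at -2.54 and -1.96 on the x axis, have the lowest Cxcr5, Ccr6 and S1pr1, whereas Cxcr2 is at 10.80 in mouse 4 and 6.67 in mouse 5.

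With all arrays, 9 of the 13 other receptors varied more between mice, beside the 66.8% of all genes. Without mouse 5 the 3 named ones did, beside 20.3% of all genes at the same adjusted p under 0.05. At an unadjusted p under 0.05 there were 8, with no share of all genes given here for that threshold. Without mice 4 and 5, 0 passed in limma, beside 0.708% of all genes. In that set 4 had an unadjusted p under 0.05, again with no share of all genes given. Ccr3, the eotaxin receptor of eosinophils, read 3.28 to 3.48 on all arrays, under the filter. Cx3cr1, a receptor of monocytes, read 4.51 in mouse 4 and 5.11 to 5.75 elsewhere.

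Of 15 tested genes for chemoattractant ligands, 11 varied more between mice with all arrays, 5 without mouse 5 and 1 without mice 4 and 5, beside 66.8%, 20.3% and 0.708% of all genes. The 5 were Camp, Ccl9, Cxcl16, Ccl5 and Ccl8, the last 2 named after their values were seen. Camp, an antimicrobial peptide that also acts at formyl peptide receptors, was the 1 gene left in the smallest set (limma adjusted p = 0.000763), where mice 1 to 3 gave 6.96, 6.12 and 11.80 and the pool 9.50 to 10.65. That call rests on mouse 3: with the other 4 mice the limma adjusted p was 0.199. Ccl9, a CC chemokine that acts at CCR1, was highest in mouse 3 (9.04) and lowest in mouse 5 (5.68), with 7.86, 7.81 and 6.87 for mice 1, 2 and 4. Cxcl16, a chemokine of phagocytes, read 6.94 and 6.59 in mice 4 and 5, 5.36 to 5.88 in mice 1 to 3 and 5.51 to 5.95 in the pool. Its limma adjusted p without mouse 5 was 0.0073.

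For Pf4, a chemokine of platelets, mice minus pool was -1.32 with all arrays and did not pass the test (limma adjusted p = 0.285). It was the 1 ligand with a lower mean in the mice in the smaller sets, with a difference of -1.41 without mouse 5 (SE 0.17, limma adjusted p = 0.0392) and of -1.32 without mice 4 and 5 (SE 0.15, adjusted p = 0.0303). Pf4 was named after its value was seen. The 10 tested platelet markers, which include it, stood at -1.85 to -0.34 in the 5 mice and 0.80 to 1.13 in the pool, without overlap. The integrin chain Itga2b of platelets read 9.83 to 11.71 in the mice and 12.50 to 12.97 in the pool. The part of platelets in the Pf4 difference was not tested.

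Genes that make or break down lipid attractants, 9 in all, gave 6 with a larger spread between mice, 1 without mouse 5 and 0 without mice 4 and 5 (limma, 0 at an unadjusted p under 0.05). The shares of all genes in the same sets were 66.8%, 20.3% and 0.708%, at an adjusted p under 0.05. The 1 was Lpcat1, an acyltransferase of platelet-activating factor synthesis, at 8.70 to 9.60 in mice 1 to 3 and 7.22 and 7.31 in mice 4 and 5 (limma adjusted p = 0.0187). Its probe set can match several transcripts, and without such probe sets its adjusted p with all mice was 0.0994. Pafah2, an acetylhydrolase of platelet-activating factor named after its value was seen, had a lower mean in mice 1 to 4 than in the pool (6.42 against 7.90, limma adjusted p = 0.045). With all arrays the limma adjusted p of Pafah2 was 0.999. Of 28 genes that carry the receptor signal to the actin skeleton, 22 varied more between mice with all arrays and 0 without mouse 5 (limma, 1 at an unadjusted p under 0.05), beside 66.8% and 20.3% of all genes. The list stood at 0.19 to 0.35 in mice 1 to 4 and at -2.33 in mouse 5. Its median log2 variance ratio fell from 3.75 to -0.46 without mouse 5. Among 10 genes of receptor desensitization the counts were 6 and 0 (limma, 1 at an unadjusted p under 0.05). They stand beside the same 66.8% and 20.3% of all genes at an adjusted p under 0.05. For the unadjusted counts of the lists in this paragraph, no share of all genes is given here. Rgs18, a regulator of G protein signalling abundant in platelets and named after its value was seen, had a lower mean in mice 1 to 4 than in the pool (9.56 against 11.55, limma adjusted p = 0.038). With all arrays the limma adjusted p of Rgs18 was 0.449.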

How the data were processed

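Deposited values are on the log2 scale, and the authors made them with RMA, per the submitters' processing notes; its version, the background step and the joint or separate processing of the arrays are not given in the sources used here. Per the labels' protocols, RNA was labelled with 2 amplification cycles and hybridized to Affymetrix MG-430 PM strips. The percentiles of the arrays differ as deposited. All 10 value columns were used.

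Of 45141 probe sets, 28898 had a single gene symbol in the probe annotation, 551 several and 15692 none; of the 28898, 28689 matched the gene table of GRCm38.p6 by gene ID, and 0 symbols changed. This left 17097 genes, each read by its brightest probe set. Testing covered the 10734 whose mean exceeded 4.58, the median signal on the array.

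For spread, the variance between mice was divided by the pool variance. The pool variance was first shrunk toward an intensity-dependent trend (limma 3.58.1 in R 4.3.3), and each direction had a one-sided test. Means were compared in limma with the error from the mice alone, since the pool is 1 sample. P-values were adjusted by the Benjamini-Hochberg method over all tested genes, with a threshold of 0.05. The tests were checked on simulated data. The labels give the pool arrays as technical replicates, so their spread covers the steps from isolation to hybridization. Alternatives changed the filter, the probe set of a gene, the scaling, the variance test, the error of the means and the arrays kept.

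Named genes are the receptors, at most 3 genes of each further list with the largest SD among those past the threshold without mouse 5, the 3 nearest profiles to Cxcr2 and cell markers. The receptors and lists were chosen with earlier results of these data known. Tables were read with the R package data.table, and plots used Python 3.11.15, matplotlib 3.10.9, numpy 2.4.6 and pandas 2.3.3. The planned tests of the Cxcr2 to Cxcr4 balance were not run, since Cxcr4 was not analysed here. Ly6g was not analysed here either.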

Additional observations from a re-analysis of the deposited data

Results flagged for a closer look

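Among 26 probe sets (those of the 8 receptors and of the 10 other genes described with array values by rule), each read in both groups of 5, 9 of 52 groups held an array whose gap to its neighbour exceeded 0.71 of the range of the group. Chance gives such a gap in about 1 of 20 groups, but that rate does not apply to this set: Mmp9, Emb and Tor4a were picked for profiles near that of Cxcr2, and Camp for its SD between mice. Of the 9, 6 were low values of mouse 5, and 3 of these belong to Mmp9, Emb and Tor4a.

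Among receptors, mouse 5 stood apart for Cxcr2 (6.67), for Ccr1 (6.18) and for C5ar1 (6.00). The second probe set of Ccr1 had mouse 4 apart at 10.12, and the third of C3ar1 had pool 1 apart at 4.43. Among the nearest profiles to Cxcr2, mouse 5 stood apart for Mmp9 (8.38), Emb (7.02) and Tor4a (5.96). Camp, of the ligands, stood apart in mouse 3 at 11.80.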

How the results depend on the processing

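The count of genes with a larger spread between mice was 7165 of 10734. It was 10967 of 17097 with no filter, 4432 of 6079 with a filter at the 75th percentile, 3760 without moderation, 0 in the test on absolute deviations (836 at an unadjusted one-sided p under 0.05), 76 without mice 4 and 5, and 2176 to 7594 when each array was left out in turn. The count of receptors, 5, became 2 without moderation (Cxcr2 and Ccr1), 0 in the test on absolute deviations, 0 without mice 4 and 5, and 0 to 5 when each array was left out. It was 0 without mouse 5 and 3 without mouse 4. Under the other settings it was 4 to 6.

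The count of genes with a different mean was 0 (560 at an unadjusted p under 0.05). It was 288 in an ordinary 2-group fit, 188 with the replicate block, 468 without mice 4 and 5, and 0 to 155 when each array was left out, with 155 without mouse 5 and 1 without mouse 3. In none of the 20 alternatives run was a receptor mean called. The labels do not pair mouse and pool arrays of 1 number, and the correlation of their deviations from the group means, across genes, ranged from -0.259 to 0.501, so the replicate block joins arrays that share only a number.

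Signs that turned, as log2 variance ratios or mean differences, are given by setting. After quantile normalization again they were 2.23 (Fpr2 spread) and 0.04 (Cxcr2 mean). After centring the Fpr2 mean was -0.02. With the probe set of median mean the Ccr2 mean was -0.20. With the second brightest probe set, added after the data were seen, the means were 0.19 (C5ar1), 0.13 (Ccr1) and -0.20 (Ccr2). Without mice 4 and 5 the spreads were -5.53 (C5ar1), -3.82 (Ccr1), -0.82 (Ccr2), -0.22 (Ltb4r1) and -4.45 (Ccr6), and the means 0.17 (C5ar1), 0.26 (Ccr1), -0.08 (Ccr2), 0.24 (Cxcr2) and -0.17 (Fpr2). Without an intensity trend they were -0.20 (C3ar1 spread) and 0.21 (Fpr2 spread), without moderation -0.53 (C3ar1 spread), and on absolute deviations -0.03 (C3ar1) and 0 (Fpr2). Leaving out each array gave spreads of -1.16 to 0.87 (C3ar1), -4.32 to 2.94 (C5ar1), -2.07 to 4.76 (Ccr1) and -0.94 to 1.72 (Fpr2). The means were then -0.31 to 0.14 (C5ar1), -0.83 to 0.35 (Ccr1), -0.69 to 0.34 (Cxcr2) and -0.12 to 0.10 (Fpr2). Beyond what the alternatives remove, the cause was not tested. The Ccr2 call also ended without mouse 2, pool 2, pool 3 or pool 4. C3ar1 falls under the filter at the 75th percentile and, with the probe set of median mean, under the main filter. It has no value in these settings. The alternatives for the Cxcr2 to Cxcr4 balance were not run.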
